A study of Mus musculus with 12 samples.

Results

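The genes described here are 36 genes of the skeletal muscle sarcomere and of muscle metabolism, taken by symbol from the 55401 genes of the expression table. Symbols alone were used to pick the rows, and all 36 were found. They were followed through 12 RNA sequencing libraries of mouse tissue that the labels describe as orthotopic oral tumour. By the labels, MTC-Q1 mouse oral cancer cells were injected into the mouths of C57BL/6 mice, and treatment started when tumours reached 100 mm3. There were 3 libraries in each of 4 groups. The control group (Ctrl-IgG) received a control isotype, named IgG1-Fc in the labels. The others received an antibody against the macrophage receptor CSF1R (aCSF1R), recombinant interleukin-10 fused to an Fc (IL-10-Fc), or BF10. In BF10 interleukin-10 is attached to the CSF1R antibody. The labels give the same cancer cell line and strain for every mouse and name no altered genotype. Neither age nor sex is given in the labels, and they do not say whether tissue from several mice was pooled. The study's list of resources calls the tumour tissue of this series mixed, without saying what was mixed. The labels give 4 doses in the design text and 6 in the protocol. Nothing in the labels says that the libraries of a group came from separate mice, so p-values measure the spread between these libraries, which may be technical.

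A skeletal muscle fibre contracts when thick filaments of myosin pull on thin filaments of actin inside repeating units called sarcomeres. Calcium released from the sarcoplasmic reticulum binds troponin on the thin filament, tropomyosin moves aside, and myosin can bind actin. Fast and slow fibres use different genes for the same part, so that most myosin chains and troponin subunits exist as a fast and a slow form. Muscle of the cheek, tongue and jaw lies close to the oral lining, and in a bulk library fewer muscle fibres and less RNA per fibre cannot be told apart.

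The libraries stood apart in ways that go beyond treatment. The 6 Ctrl-IgG and aCSF1R libraries had at most 0.04 FPKM of Xist, the transcript that silences an X chromosome in female cells, and 4.23 to 11.3 FPKM of the Y-linked Eif2s3y. The 6 IL-10-Fc and BF10 libraries had 17.1 to 30.7 FPKM of Xist. Eif2s3y was 0 to 0.05 FPKM in 5 of them and 3.29 FPKM in BF10 replicate 3. The class II gene H2-Ea is not transcribed in C57BL/6 mice because of a deletion. It was at most 0.27 FPKM in the first 6 libraries and 552.8 to 1727 FPKM in the other 6. Those higher values are at odds with the strain given in the labels. Treatment with IL-10-Fc or BF10 and the difference between these 2 sets cannot be told apart in any comparison across them. BF10 replicate 1, Ctrl-IgG replicate 2 and replicates 1 and 2 of IL-10-Fc had the highest FPKM sums, with 6.57% to 9.04% of the sum from mitochondrially encoded genes against 2.99% to 3.61% in the other 8 libraries. Ctrl-IgG replicate 3 and aCSF1R replicates 1 and 2 held markers of stratified squamous epithelium, the lining of mouth and skin: a list of 15 such genes summed to 1870 to 2746 FPKM there and to 7.79 to 65.4 FPKM in the other 9 libraries. FPKM values carry no counts, so the depth behind a single value is unknown.

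Promoters are shown for 4 of the genes because they stand for the patterns described below. Acta1 and Myh1 were high where most of the other muscle genes were high. Tpm2 was higher in every Ctrl-IgG and aCSF1R library than in any IL-10-Fc or BF10 library. Eno3 was highest in IL-10-Fc or BF10 libraries. Each promoter runs from 250 bases before to 50 bases after the RefSeq start site in GRCm38.p6, read 5′ to 3′ on the gene's strand. Capitals mark CATTCC, the MCAT element bound by TEAD factors, CAGCTG, an E-box form bound by myogenic factors, TATAAA, the CArG box of serum response factor and the MEF2 site, each searched on both strands.
Acta1, chr8:123894726-123895025, minus strand: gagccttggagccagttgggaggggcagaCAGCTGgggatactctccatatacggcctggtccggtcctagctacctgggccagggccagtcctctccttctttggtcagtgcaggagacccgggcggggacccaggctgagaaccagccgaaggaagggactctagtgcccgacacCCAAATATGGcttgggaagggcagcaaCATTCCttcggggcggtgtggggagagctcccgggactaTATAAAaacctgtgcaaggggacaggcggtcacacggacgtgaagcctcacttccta
Myh1, chr11:67199852-67200151, plus strand: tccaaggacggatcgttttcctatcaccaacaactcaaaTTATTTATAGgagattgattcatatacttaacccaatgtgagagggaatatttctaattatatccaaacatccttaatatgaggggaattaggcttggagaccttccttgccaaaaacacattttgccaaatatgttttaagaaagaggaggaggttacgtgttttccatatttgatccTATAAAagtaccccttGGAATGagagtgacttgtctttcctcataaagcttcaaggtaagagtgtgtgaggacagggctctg
Tpm2, chr4:43523505-43523804, minus strand: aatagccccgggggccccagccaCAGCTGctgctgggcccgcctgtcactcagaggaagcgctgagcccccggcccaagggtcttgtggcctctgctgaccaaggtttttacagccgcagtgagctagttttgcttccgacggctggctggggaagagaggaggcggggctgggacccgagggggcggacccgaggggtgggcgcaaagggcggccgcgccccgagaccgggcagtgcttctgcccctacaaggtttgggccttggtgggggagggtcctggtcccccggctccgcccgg
Eno3, chr11:70656926-70657225, plus strand: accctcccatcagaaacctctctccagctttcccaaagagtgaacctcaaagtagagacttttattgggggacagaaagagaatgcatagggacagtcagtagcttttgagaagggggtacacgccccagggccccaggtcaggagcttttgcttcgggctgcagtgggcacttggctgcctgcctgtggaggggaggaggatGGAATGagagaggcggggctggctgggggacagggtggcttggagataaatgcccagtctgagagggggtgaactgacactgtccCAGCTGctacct

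Positions are counted from the start site, with the base before it as -1, and name the first base of a match. In Acta1 the CAGCTG lay at -221, the CArG box at -73, CATTCC at -46 and TATAAA at -7. Myh1 had a MEF2 site at -211, a TATAAA on the reverse strand that overlaps it, another TATAAA shortly before the start and CATTCC on the reverse strand at -16. Tpm2 had only CAGCTG, at -227. Eno3 had CATTCC on the reverse strand at -47 and CAGCTG at 39 after the start. The RefSeq promoter table held 29 of the 36 genes; Mylk2, Tnnt3, Tnni2, Actn3, Neb, Myoz1 and Cox6a2 had no entry. CAGCTG was found in 14 of the 29 promoters (48.3%) and in 16.3% of all 32851 promoters of that length, CATTCC in 10 (34.5%) and 14.7%, and TATAAA in 9 (31.0%) and 13.6%. The general E-box CANNTG, which includes CAGCTG, was in 25 of 29 (86.2%) and in 72.3% of all. The MEF2 site was in 5 of 29 (17.2%) and in 3.19% of all, and the CArG box in 3 of 29 (10.3%) and in 1.63% of all. A match of letters is a description and not a site of binding.

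The muscle genes varied more between libraries than most genes did. Of the 36, 32 reached 1 FPKM in at least 3 libraries and were tested; the slow myosin heavy chain Myh7, the slow light chain Myl3 and the developmental heavy chains Myh3 and Myh8 did not. The median range of log2(FPKM + 1) over the 12 libraries was 4.04 for the 32 tested genes and 1.83 for all 15813 tested genes. The 36 genes were chosen with earlier results of these data known, so this difference may partly follow from that choice. At least 1 FPKM was reached by 27, 22 and 32 of the 36 genes in Ctrl-IgG replicates 1 to 3, by 32, 33 and 27 with aCSF1R, by 9, 9 and 9 with IL-10-Fc, and by 11, 9 and 25 with BF10. BF10 replicate 3, the library of its group with Eif2s3y, therefore expressed most of the set, unlike the other 5 IL-10-Fc and BF10 libraries. Together the 36 genes made up 0.115%, 0.0588% and 0.381% of the FPKM sum in Ctrl-IgG, 0.276%, 0.277% and 0.123% with aCSF1R, 0.0238%, 0.0224% and 0.122% with IL-10-Fc, and 0.0379%, 0.120% and 0.135% with BF10. Much of this was Tpm1, Tpm2, Tpm3 and Des, which cells other than skeletal muscle also express. Without those 4 genes the share was 0.0151%, 0.00955% and 0.233% in Ctrl-IgG, 0.151%, 0.152% and 0.0246% with aCSF1R, 0.00795%, 0.00702% and 0.0236% with IL-10-Fc, and 0.0109%, 0.0234% and 0.0384% with BF10. The heat map of all 36 genes shows the bright columns of Ctrl-IgG replicate 3 and aCSF1R replicates 1 and 2.

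**Figure D1:**
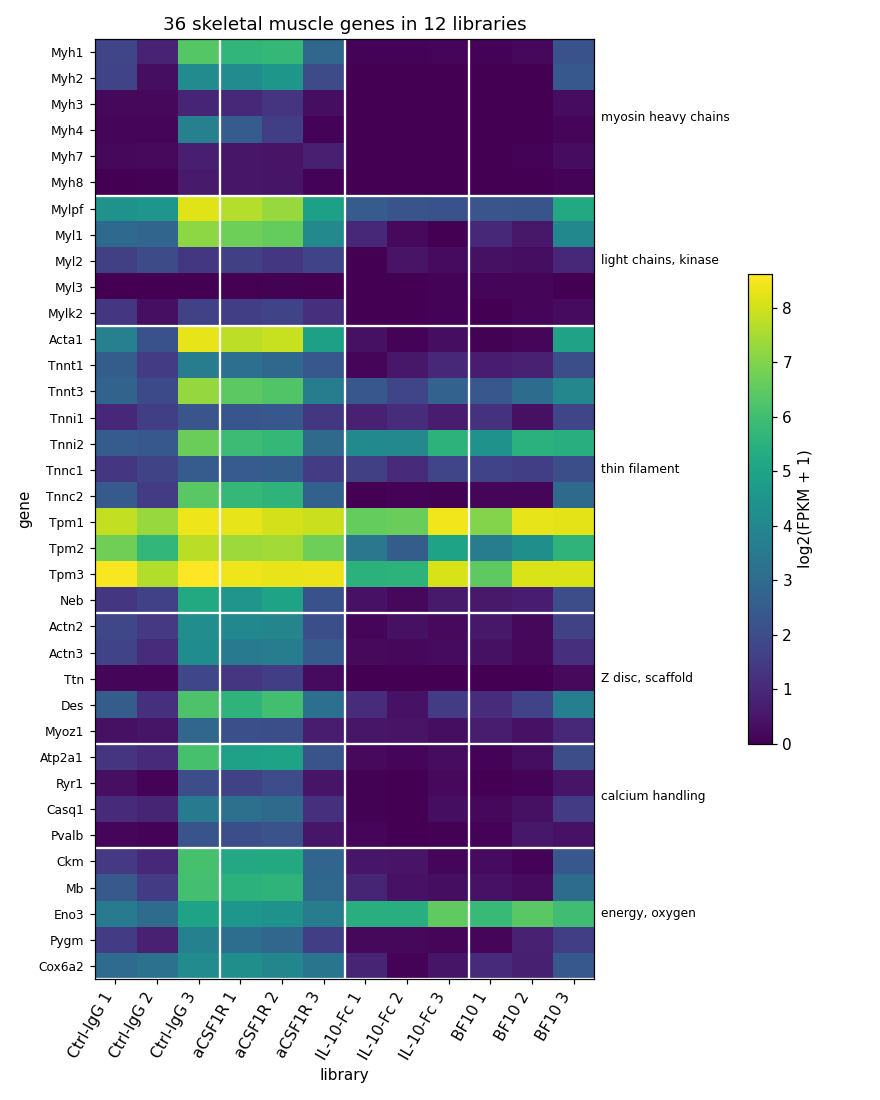
Level of each of the 36 genes, as log2(FPKM + 1) on the colour scale, in the 12 libraries (columns, 3 per group), with the genes grouped by role. Most rows are brightest in Ctrl-IgG replicate 3 and aCSF1R replicates 1 and 2 and dark in IL-10-Fc and in BF10 replicates 1 and 2, while Tpm1, Tpm2, Tpm3, Mylpf, Eno3 and Tnni2 stay above 2 in every library.

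The myosin heavy chains are the motors of the thick filament, and each marks a fibre type: Myh4 the fastest 2B fibres, Myh1 2X, Myh2 2A and Myh7 slow fibres. Myh1 measured 2.51, 0.81 and 79.98 FPKM in Ctrl-IgG replicates 1 to 3, 49.54, 52.83 and 6.19 with aCSF1R, 0.07, 0.06 and 0.11 with IL-10-Fc, and 0.07, 0.13 and 3.48 with BF10. Its level therefore ranged 98.7-fold within the control group and 8.53-fold within aCSF1R. Myh2 measured 2.33, 0.24 and 16.79 FPKM in Ctrl-IgG, 17.01, 22.52 and 2.96 with aCSF1R, at most 0.01 with IL-10-Fc, and 0, 0.02 and 4.24 with BF10. Myh4 reached 12.47 FPKM in Ctrl-IgG replicate 3 and 4.72 and 2 FPKM in aCSF1R replicates 1 and 2, and did not pass 0.12 FPKM in the remaining 9. Myh7 never exceeded 0.70 FPKM. The developmental chains, which embryonic and regenerating fibres use, were low throughout, with at most 1.44 FPKM for Myh3 and 0.54 FPKM for Myh8. Myh1, Myh2, Myh3, Myh4 and Myh8 lie side by side on chromosome 11 and are close in sequence, so the division of reads among them is uncertain. The group spans chr11:67078300-67308634 in GRCm38.

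The heavy chains differed in proportion as well as in level. As a share of the 6 heavy chains in FPKM, a scale that corrects for length, Myh1 made up 71.9% in Ctrl-IgG replicate 3 and 67.8% and 66.4% in aCSF1R replicates 1 and 2. It made up 60.6% in aCSF1R replicate 3, 47.9% in the first Ctrl-IgG library and 41.9% in BF10 replicate 3. There the larger share was Myh2, with 51.0%. The share of Myh4 was 11.2% in Ctrl-IgG replicate 3, 7.89% in Ctrl-IgG replicate 2, where all 6 chains summed to only 1.52 FPKM, 6.46% and 2.51% in aCSF1R replicates 1 and 2, and 0.963% in BF10 replicate 3. The remaining 5 IL-10-Fc and BF10 libraries had 0.07 to 0.22 FPKM of all 6 chains together, too little to give a proportion.

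Light chains stiffen the neck of the myosin head, and the fast forms Mylpf and Myl1 were among the more abundant genes of the set. The fast regulatory chain Mylpf measured 19.93, 21.99 and 295.72 FPKM in Ctrl-IgG, 200.27, 156.23 and 28.88 with aCSF1R, 4.72, 3.71 and 3.52 with IL-10-Fc, and 3.85, 3.74 and 36.53 with BF10. Of the 10 myosin chains among the 36 genes it alone was above 1 FPKM in every library. A pseudogene of the same family, Mylf-ps, was counted beside it at up to 16.87 FPKM, and reads may have been divided between them. The fast essential chain Myl1 measured 6.72, 6.04 and 140.91 FPKM in Ctrl-IgG, 105.03, 94.08 and 15.64 with aCSF1R, 0.99, 0.17 and 0 with IL-10-Fc, and 0.95, 0.47 and 15.23 with BF10. Its slow counterpart Myl3 stayed at or below 0.09 FPKM everywhere.

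Myl2, the slow and cardiac regulatory chain (chr5:122100951-122113472, plus strand), followed another course. It measured 2.10, 2.94 and 1.63 FPKM in Ctrl-IgG, 2.12, 1.61 and 2.33 with aCSF1R, 0, 0.37 and 0.18 with IL-10-Fc, and 0.31, 0.25 and 0.95 with BF10. The 6 Ctrl-IgG and aCSF1R libraries differed 1.80-fold and 1.45-fold within their groups, and none overlapped with the other 6. Mylk2, the kinase that phosphorylates the regulatory chain in skeletal muscle, measured 1.59, 0.29 and 2.26 FPKM in Ctrl-IgG, 2.01, 2.44 and 1.3 with aCSF1R, at most 0.05 with IL-10-Fc, and 0.01, 0.08 and 0.19 with BF10.

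The thin filament is built on skeletal actin, Acta1. It measured 12.65, 3.54 and 313.39 FPKM in Ctrl-IgG, 215.26, 237.60 and 28.59 with aCSF1R, 0.30, 0.05 and 0.26 with IL-10-Fc, and 0.03, 0.11 and 30.46 with BF10. BF10 replicate 3 lay above Ctrl-IgG replicates 1 and 2, so the groups overlapped. Nebulin (Neb), the ruler along the thin filament, was high in the same 3 libraries, with 36.37, 21.67 and 31.18 FPKM in Ctrl-IgG replicate 3 and aCSF1R replicates 1 and 2, 3.48 FPKM in aCSF1R replicate 3, 3.10 FPKM in BF10 replicate 3 and at most 2.25 FPKM elsewhere.

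The troponin subunits split by gene rather than by role. The fast calcium sensor Tnnc2 measured 4.47, 1.80 and 83.39 FPKM in Ctrl-IgG, 52.55, 47.59 and 5.45 with aCSF1R, at most 0.07 with IL-10-Fc, and 0.12, 0.11 and 6.92 with BF10. Its slow counterpart Tnnc1 stayed at 1.04 to 4.85 FPKM across all 12 libraries. Fast troponin T (Tnnt3), which ties troponin to tropomyosin, measured 5.66, 2.79 and 152.25 FPKM in Ctrl-IgG, 87.25, 75.98 and 11.37 with aCSF1R, 4.11, 2.46 and 5.48 with IL-10-Fc, and 4.08, 7.18 and 14.80 with BF10. Slow troponin T (Tnnt1) measured 4.77, 1.88 and 11.50 FPKM in Ctrl-IgG, 7.96, 6.49 and 4.12 with aCSF1R, 0.09, 0.47 and 0.99 with IL-10-Fc, and 0.61, 0.72 and 3.16 with BF10. Tnnt3 and Tnni2 lie on the same strand of chromosome 7, from 142498836 to 142516009 and from 142441808 to 142444410. Slow troponin I (Tnni1), the inhibitory subunit, stayed between 0.30 and 4.01 FPKM.

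Fast troponin I (Tnni2) exceeded its fast partners Tnnt3 and Tnnc2 in all 6 IL-10-Fc and BF10 libraries. It measured 4.71, 4.21 and 102.53 FPKM in Ctrl-IgG, 59.61, 52.04 and 6.98 with aCSF1R, 16.43, 15.75 and 46.76 with IL-10-Fc, and 20.08, 44.93 and 42.44 with BF10. In IL-10-Fc replicate 3, for example, Tnni2 was 46.76 FPKM beside 0.03 FPKM of Tnnc2, 5.48 FPKM of Tnnt3 and 0.26 FPKM of Acta1. Every IL-10-Fc and BF10 library exceeded Ctrl-IgG replicates 1 and 2 and aCSF1R replicate 3, and lay below the other 3 libraries.

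The tropomyosins, rods along the thin filament that many cell types use in other isoforms, had the highest mean FPKM of the 36 genes. Tpm3 measured 367.98, 197.11 and 392.42 FPKM in Ctrl-IgG, 336.15, 325.07 and 331.21 with aCSF1R, 45.86, 46.73 and 271.09 with IL-10-Fc, and 88.57, 279.58 and 277.05 with BF10. Tpm1 measured 224.14, 153.95 and 335.59 FPKM in Ctrl-IgG, 311.57, 267.22 and 242.46 with aCSF1R, 94.38, 98.48 and 341.15 with IL-10-Fc, and 129.61, 316.25 and 309.54 with BF10. In each group that held one of the 4 libraries with a high FPKM sum and mitochondrial share, Tpm1 and Tpm3 were lowest in those libraries, and the part of these libraries in the differences was not tested beyond leaving them out. Tpm2 instead separated the 2 sets of groups, with 107.06, 51.37 and 208.97 FPKM in Ctrl-IgG, 162.22, 169.94 and 103.74 with aCSF1R, 9.79, 4.79 and 31.12 with IL-10-Fc, and 11.68, 18.80 and 47.19 with BF10. Smooth muscle cells and pericytes also make tropomyosins and desmin: 10 of a list of 11 of their markers were tested, and the list summed to 53.4 to 64.5 FPKM in Ctrl-IgG replicates 1 and 2, 112 FPKM in replicate 3, 89.5 to 112 FPKM with aCSF1R, 200 to 397 FPKM with IL-10-Fc, and 210 to 256 FPKM with BF10, and their part in the tropomyosin levels was not tested.

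At the Z disc, where thin filaments are anchored, alpha-actinin 2 (Actn2) and its fast-fibre form Actn3 were lower in range. Actn3 measured 2.34, 1.16 and 17.27 FPKM in Ctrl-IgG, 10.79, 11.60 and 4.38 with aCSF1R, 0.16, 0.14 and 0.20 with IL-10-Fc, and 0.31, 0.13 and 1.23 with BF10. Actn2 measured 2.60, 1.67 and 17.54 FPKM in Ctrl-IgG, 15.33, 14.25 and 3.19 with aCSF1R, at most 0.30 with IL-10-Fc, and 0.47, 0.14 and 2.19 with BF10. The intermediate filament desmin (Des) reached 73.72 FPKM in Ctrl-IgG replicate 3 and 47.43 and 63.32 FPKM in aCSF1R replicates 1 and 2. It was 12.29 FPKM in BF10 replicate 3, 7.77 FPKM in aCSF1R replicate 3 and 0.33 to 4.81 FPKM in the other 7 libraries. The giant spring titin (Ttn) and the fast Z-disc protein Myoz1 were low, at most 2.55 and 6.11 FPKM, and reached 1 FPKM only in Ctrl-IgG replicate 3 and aCSF1R replicates 1 and 2.

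The calcium handling genes were near 0 in IL-10-Fc and in BF10 replicates 1 and 2. Atp2a1, the pump that returns calcium to the reticulum of fast fibres, measured 1.44, 1.10 and 68.58 FPKM in Ctrl-IgG, 29.58, 31.35 and 3.67 with aCSF1R, 0.16, 0.09 and 0.22 with IL-10-Fc, and 0.06, 0.26 and 3.09 with BF10. The store protein calsequestrin 1 (Casq1) ran from 6.97 to 11.05 FPKM in the 3 libraries with stratified epithelium and was at most 1.89 FPKM elsewhere. The release channel Ryr1 and the calcium buffer parvalbumin (Pvalb) were at most 3.09 and 3.72 FPKM, and both stayed under 1 FPKM outside those 3 libraries.

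Among the genes of energy supply, creatine kinase (Ckm), which regenerates ATP from phosphocreatine, and the oxygen carrier myoglobin (Mb) followed actin. Ckm measured 1.72, 1.01 and 68.84 FPKM in Ctrl-IgG, 35.89, 36.98 and 6.07 with aCSF1R, 0.45, 0.36 and 0.10 with IL-10-Fc, and 0.20, 0.07 and 4.11 with BF10. Mb reached 65.39, 45.25 and 48.19 FPKM in the same 3 libraries, 7.25 FPKM in BF10 replicate 3, 6.52 FPKM in aCSF1R replicate 3 and at most 4.32 FPKM elsewhere. Pygm, the phosphorylase that breaks down muscle glycogen, ran from 0.09 to 12.78 FPKM, with 12.78, 7.68 and 6.13 FPKM in those 3 libraries.

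Cox6a2, the striated-muscle subunit of cytochrome oxidase (chr7:128205435-128206387, minus strand), behaved like Myl2 and Tpm2. It measured 7.17, 8.29 and 16.73 FPKM in Ctrl-IgG, 18.43, 14.46 and 9.19 with aCSF1R, 0.85, 0.05 and 0.41 with IL-10-Fc, and 1.07, 0.68 and 4.19 with BF10. Ctrl-IgG replicate 2, which had only 3.54 FPKM of Acta1, had 8.29 FPKM of Cox6a2. No IL-10-Fc or BF10 library reached the lowest Ctrl-IgG or aCSF1R library.

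Eno3, the muscle form of the glycolytic enzyme enolase (chr11:70657202-70662513, plus strand), ran in the opposite direction. It measured 10.47, 7.22 and 30.75 FPKM in Ctrl-IgG, 21.92, 20.21 and 11.26 with aCSF1R, 42.40, 41.30 and 91.33 with IL-10-Fc, and 55.50, 85.19 and 62.10 with BF10. All 6 IL-10-Fc and BF10 libraries lay above all 6 others. Within the Ctrl-IgG and aCSF1R groups, its highest values were again in Ctrl-IgG replicate 3 and aCSF1R replicates 1 and 2. The dot plots of 8 genes place these courses side by side.

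**Figure D2:**
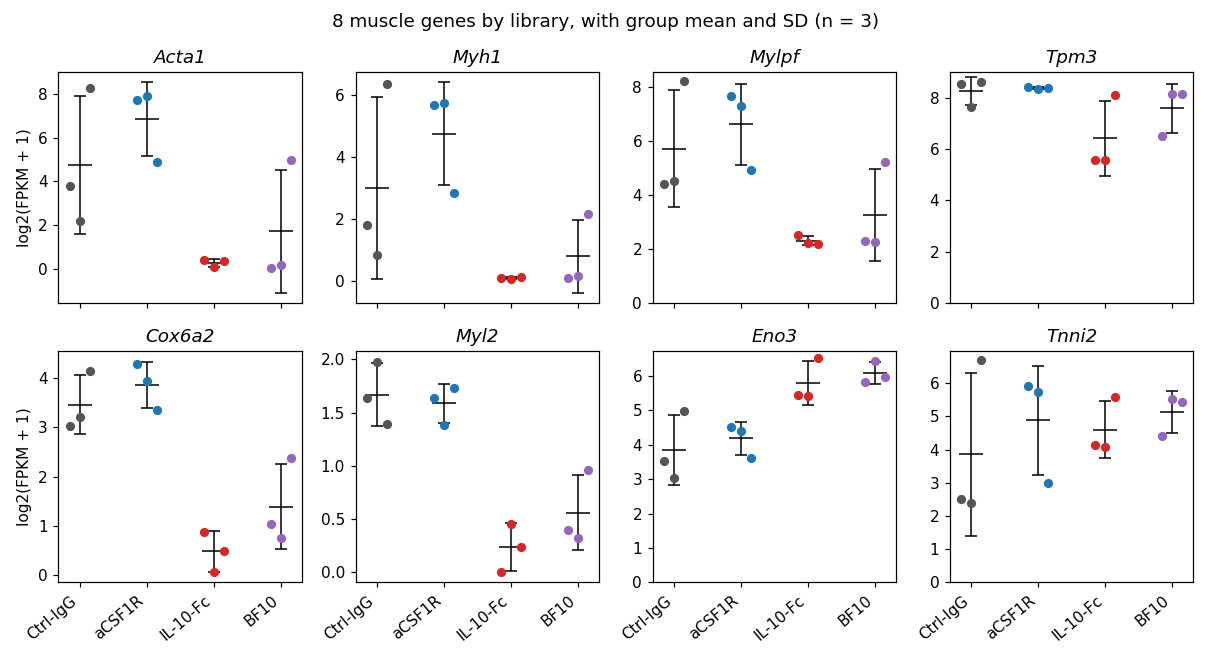
Level of 8 of the genes in each library as log2(FPKM + 1), with the 3 libraries of a group as points and the group mean with its SD (n = 3) as a bar. Acta1, Myh1 and Mylpf spread widely within Ctrl-IgG and BF10, Cox6a2 and Myl2 are higher in all 6 Ctrl-IgG and aCSF1R libraries than in the other 6, and Eno3 is higher in all 6 IL-10-Fc and BF10 libraries.

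Muscle genes and markers of stratified epithelium were highest in the same 3 libraries, but some muscle genes were also measured where the markers were low. The markers of the lining Krt5, Krt14 and Trp63 were 137.75, 430.56 and 3.68 FPKM in Ctrl-IgG replicate 3 and at most 0.04, 0.17 and 0.04 FPKM in Ctrl-IgG replicates 1 and 2. BF10 replicate 3, Ctrl-IgG replicate 1 and aCSF1R replicate 3 had 30.46, 12.65 and 28.59 FPKM of Acta1 at summed lining markers of 36.3, 8.46 and 10.7 FPKM. The part of the lining in the group differences was not tested beyond leaving those libraries out.

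**Figure D3:**
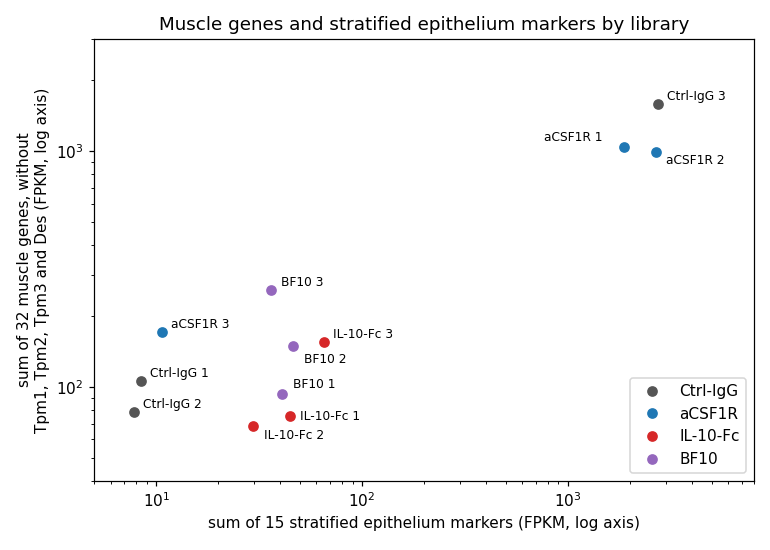
Sum of 32 muscle genes (vertical, FPKM, log axis) against the sum of 15 stratified epithelium markers (horizontal, FPKM, log axis), with 1 point per library coloured by group. Ctrl-IgG replicate 3 and aCSF1R replicates 1 and 2 stand at the top right, with 1870 to 2746 FPKM of the epithelium markers, and BF10 replicate 3 is the highest of the other 9 on the vertical axis.

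The fast and the slow programme were compared within each library, as the mean log2(FPKM + 1) of 13 fast contractile genes minus that of 6 slow ones. This gave 0.67, 0.21 and 3.54 for Ctrl-IgG replicates 1 to 3, 2.99, 2.95 and 1.03 with aCSF1R, 0.44, 0.19 and 0.28 with IL-10-Fc, and 0.20, 0.50 and 1.29 with BF10. It was above 0 in every library, and largest in the 3 with the most Acta1. With a pseudocount of 0.1 in place of 1 it fell below 0 in IL-10-Fc replicate 2, at -0.08. In IL-10-Fc and in BF10 replicates 1 and 2, Mylpf, Tnnt3 and Tnni2 were the only fast genes that reached 1 FPKM. The fast minus slow level there rests mainly on these genes and does not describe the whole fast set. The group means were 1.47 ± 1.81 in Ctrl-IgG, 2.32 ± 1.12 with aCSF1R, 0.30 ± 0.12 with IL-10-Fc, and 0.66 ± 0.56 with BF10 (SD, n = 3). The fast genes varied more than the slow ones in every group except IL-10-Fc. The mean fast level was 2.83 ± 2.15 in Ctrl-IgG, 3.85 ± 1.32 with aCSF1R, 0.83 ± 0.10 with IL-10-Fc, and 1.48 ± 0.88 with BF10 (SD, n = 3). In the same order the mean slow level was 1.35 ± 0.35, 1.53 ± 0.21, 0.53 ± 0.10 and 0.81 ± 0.34 (SD, n = 3). A mean of log2(FPKM + 1) compresses low genes, so the slow genes, which were low everywhere, could not fall far on this scale.

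Pairs of fast and slow forms, taken on a linear scale, differed from one another in their course. The fast form made up 93.0%, 91.6% and 92.1% of troponin T in Ctrl-IgG replicate 3 and aCSF1R replicates 1 and 2, and 54.3%, 59.7% and 73.4% in Ctrl-IgG replicates 1 and 2 and aCSF1R replicate 3. In IL-10-Fc it made up 97.9%, 84.0% and 84.7%, and in BF10 87.0%, 90.9% and 82.4%, shares above those last 3 libraries, at 0.09 to 3.16 FPKM of the slow form. For troponin C it made up 94.6%, 91.9% and 90.8% in those first 3 libraries, 68.3% in BF10 replicate 3 and at most 6.31% in the other 5 IL-10-Fc and BF10 libraries, where only the slow Tnnc1, which heart and other cells also express, remained measurable. For troponin I the fast form made up 93.3% to 99.3% in all 6 IL-10-Fc and BF10 libraries, and 67.3% to 82.3% in Ctrl-IgG replicates 1 and 2 and aCSF1R replicate 3. Mylpf was at least 88.2% of the sum of Mylpf and Myl2 in every library.

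**Figure D4:**
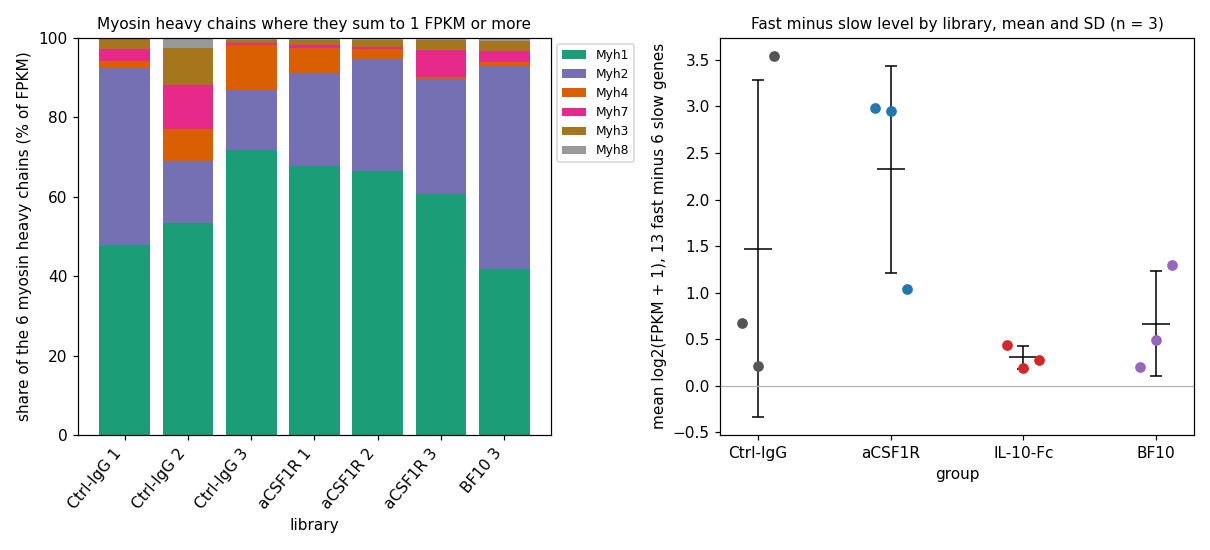
Left, the share of each of 6 myosin heavy chains in their summed FPKM (vertical, %) in the 7 libraries where the sum reached 1 FPKM; right, the mean log2(FPKM + 1) of 13 fast genes minus that of 6 slow genes, with libraries as points and the group mean with its SD (n = 3) as bars. Myh1 leads in 6 of the 7 libraries and Myh2 in BF10 replicate 3, and the fast minus slow level is highest, at 3.54, in Ctrl-IgG replicate 3.

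BF10 was set against Ctrl-IgG. Like every comparison of IL-10-Fc or BF10 with Ctrl-IgG or aCSF1R, this crosses the sets of libraries that differ in Xist and H2-Ea. Treatment cannot be told apart from that difference. Eno3 was higher and Tpm2, Myl2, Mylk2 and Cox6a2 were lower in BF10. On the log2(FPKM + 1) scale, which understates the change of low genes, Eno3 differed by 2.23 ± 0.49 (4.68-fold, adjusted p = 0.00712 by limma with Benjamini-Hochberg adjustment over 15813 genes). Cox6a2 fell by 2.07 ± 0.46 (adjusted p = 0.00747), Myl2 fell by 1.11 ± 0.24 (adjusted p = 0.00623), Tpm2 fell by 2.21 ± 0.69 (adjusted p = 0.0376) and Mylk2 fell by 1.02 ± 0.30 (adjusted p = 0.029; SE, n = 3 in each case, limma). A gene was called when the adjusted p was under 0.05 and the fold at least 1.5. These 5 genes are 15.6% of the 32 tested, where 24.9% of all tested genes were called, 11.8% higher and 13.2% lower, and the difference between these shares was not tested. Acta1 was -3.03 ± 1.61 (limma adjusted p = 0.207) and Myh1 -2.19 ± 1.26 (limma adjusted p = 0.245), and neither was called. The median difference over the 32 genes was -1.23, against -0.12 for all genes. Eno3, Myl2 and Cox6a2 stayed called whichever library was left out, and the count was 3 without Ctrl-IgG replicate 1, BF10 replicate 1 or BF10 replicate 2. Mylk2 was lost without Ctrl-IgG replicate 1 or 3 or any BF10 library. Tpm2 was lost without Ctrl-IgG replicate 1 or 3, BF10 replicate 1 or 2, aCSF1R replicate 1 or 2, or IL-10-Fc replicate 1. How many of all genes were called without a library is not given, here or for the comparisons below. Such counts cannot be read as particular to the muscle genes.

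IL-10-Fc against Ctrl-IgG concerns interleukin-10 without the CSF1R antibody, and it crosses the same sets of libraries. Here 11 of 32 genes were called (34.4%), where 33.7% of all tested genes were called, 10.1% higher and 23.6% lower. Eno3 rose by 1.94 ± 0.49 (limma adjusted p = 0.0116). Cox6a2 fell by 2.98 ± 0.46 (limma adjusted p = 0.000772), Tpm2 fell by 3.07 ± 0.69 (limma adjusted p = 0.00614), Myl2 fell by 1.44 ± 0.24 (limma adjusted p = 0.00114). Mylk2, Tnnt1, Myl1, Mylpf, Actn2, Actn3 and Tpm3 were called lower too. Myl1 fell by 3.90 ± 1.23 (limma adjusted p = 0.0318) and Mylpf fell by 3.40 ± 1.11 (limma adjusted p = 0.0368). The median difference was -1.94, against -0.39 for all genes. Cox6a2, Eno3, Myl2 and Tpm2 stayed called whichever library was left out. Without Ctrl-IgG replicate 3 the count fell to 5, and without IL-10-Fc replicate 1 or 2 to 5 and 6. Without Ctrl-IgG replicate 2 it rose to 18. The share of all genes called in these fits is not given, and the cause of these changes was not tested.

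The median differences were larger against aCSF1R, the group with over 28 FPKM of Acta1 in all 3 libraries. In IL-10-Fc, 24 of 32 genes were called (75.0%), where 42.2% of all tested genes were called, 11% higher and 31.2% lower. Acta1 fell by 6.59 ± 1.61 (limma adjusted p = 0.00869), Myl1 fell by 5.38 ± 1.23 (limma adjusted p = 0.00632), Mylpf fell by 4.31 ± 1.11 (limma adjusted p = 0.0114) and Cox6a2 fell by 3.38 ± 0.46 (limma adjusted p = 0.000348). Eno3 alone rose, by 1.61 ± 0.49 (limma adjusted p = 0.0237). The genes not called were Myh4, Tnnt3, Tnni2, Tnnc1, Tpm1, Ttn, Myoz1 and Ryr1. By role, 2 of 3 tested heavy chains, all 4 light chain and kinase genes, 7 of 11 thin filament genes, 3 of 5 Z-disc genes, 3 of 4 calcium genes and 4 of 5 energy genes fell. The median difference was -2.67, against -0.51 for all genes. Without aCSF1R replicate 1 or 2 the count was 11 in each case, and without IL-10-Fc replicate 2 it was 14. For these counts too, the share of all genes called is not given.

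BF10 and aCSF1R share the CSF1R antibody, and their comparison also crosses the sets that differ in Xist and H2-Ea. Of 32 genes, 13 were called (40.6%), where 25% of all tested genes were called, 11% higher and 14% lower. Acta1 fell by 5.12 ± 1.61 (limma adjusted p = 0.0386), Myl1 fell by 3.94 ± 1.23 (limma adjusted p = 0.0381), Cox6a2 fell by 2.47 ± 0.46 (limma adjusted p = 0.00295) and Mylk2 fell by 1.40 ± 0.30 (limma adjusted p = 0.00628). Myh1, Mylpf, Myl2, Tnnt1, Tpm2, Actn2, Actn3 and Mb fell too, and Eno3 rose by 1.90 ± 0.49 (limma adjusted p = 0.0163). Only Cox6a2, Myl2 and Mylk2 stayed called whichever library was left out. The count was 4 without aCSF1R replicate 1 or 2, 5 and 3 without BF10 replicate 1 or 2, and 7 without IL-10-Fc replicate 1 or 2. It was 25 without Ctrl-IgG replicate 3, a library outside the comparison that shares in the estimate of the spread. Again the share of all genes called in these fits is not given.

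No muscle gene was called between aCSF1R and Ctrl-IgG or between BF10 and IL-10-Fc. In aCSF1R against Ctrl-IgG limma called 0 of 15813 genes (0%), with 437 at an unadjusted p under 0.05 and none of the 32 muscle genes among them. Of the 32 genes, 31 had a higher mean in aCSF1R, with a median difference of 0.71 against 0.11 for all genes. Acta1 was 2.10 ± 1.61 higher and Myh1 1.75 ± 1.26 higher, and neither was called (limma adjusted p = 0.958 for both). Without Ctrl-IgG replicate 3, 23 of the 32 had an unadjusted p under 0.05 and none was called. How many of all genes had such a p in that fit is not given here. In BF10 against IL-10-Fc limma called 0.0126% of all genes and none of the 32, with none at an unadjusted p under 0.05. All 32 means were higher in BF10, with a median difference of 0.61 against 0.34 for all genes, and BF10 replicate 3 was the highest BF10 library for most of them. In neither comparison is the share of all genes with the same sign given here. Most of the 32 genes rise and fall together over the libraries, so these counts by sign are not separate results. A term for non-additivity, in which IL-10-Fc and aCSF1R are taken from BF10 and Ctrl-IgG is added back, was called for 0.00632% of all genes and for none of the 32, again with none at an unadjusted p under 0.05. All comparisons share libraries with others, so their calls are not independent of each other.

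**Figure D5:**
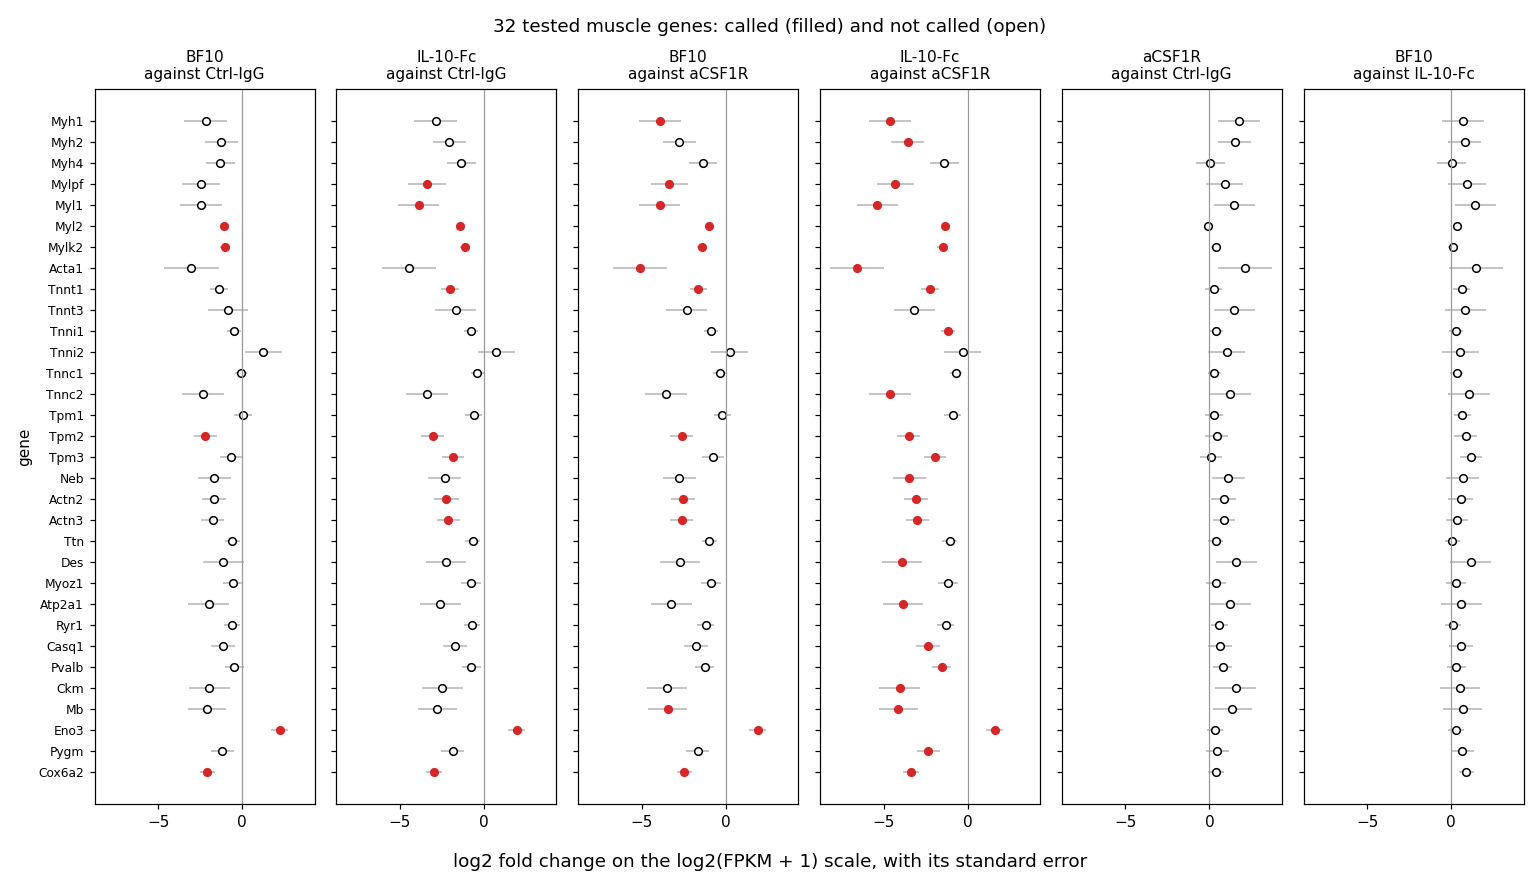
Log2 fold change of the 32 tested genes on the log2(FPKM + 1) scale (horizontal, with its standard error) in 6 comparisons, filled where called and open where not. Most genes lie left of 0 in the 4 comparisons of IL-10-Fc or BF10 with Ctrl-IgG or aCSF1R, Eno3 is the only filled point to the right, and no point is filled in aCSF1R against Ctrl-IgG or BF10 against IL-10-Fc.

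Libraries that stood apart were left out, as alternatives chosen after seeing the data. The libraries that held stratified epithelium also held the most Tnni2, so leaving them out bears directly on its call. With all libraries Tnni2 was not called in BF10 against Ctrl-IgG (1.26 ± 1.11, limma adjusted p = 0.463). Without the 3 libraries that held stratified epithelium, 3 genes were called in BF10 against Ctrl-IgG: Eno3 at 2.80 (limma adjusted p = 0.00566), Myl2 at -1.25 (limma adjusted p = 0.0181) and Tnni2 at 2.67 (limma adjusted p = 0.0191). In IL-10-Fc against Ctrl-IgG 5 were called, Eno3 and Tnni2 higher and Cox6a2, Myl2 and Actn3 lower. Against aCSF1R, of which 1 library then remained and was assumed to vary like the other groups, 2 were called in BF10 and 4 in IL-10-Fc. Eno3 and Myl2 were thus called in both comparisons with Ctrl-IgG with and without those libraries, and Acta1, Myl1 and Mylpf were called in none of the 4 without them. In IL-10-Fc against aCSF1R Acta1 was then -4.63 (limma adjusted p = 0.16), Myl1 -3.65 (limma adjusted p = 0.116) and Mylpf -2.59 (limma adjusted p = 0.19). Without the 4 libraries of highest FPKM sum, which leaves 1 IL-10-Fc library that was likewise assumed to vary like the other groups, 6 genes were called in each of the 4 comparisons, and Eno3, Cox6a2, Myl2, Mylk2 and Tpm2 were among them each time. Acta1, Myl1 and Mylpf were again called in none, at -6.51, -5.79 and -4.44 in IL-10-Fc against aCSF1R (limma adjusted p = 0.0664, 0.0554 and 0.0926). Both sets leave fewer libraries, and what ended these calls was not tested. The share of all genes called in these fits is not given here, so the counts cannot be read as particular to the muscle genes. Eno3 kept its direction in every alternative, but after rescaling to TPM it was no longer called in IL-10-Fc against Ctrl-IgG or in either comparison with aCSF1R. Its call in IL-10-Fc against Ctrl-IgG was also lost when only the groups compared were fitted. Against aCSF1R it was lost without aCSF1R replicate 3 in both comparisons. It was also lost there without BF10 replicate 2 in BF10, and without IL-10-Fc replicate 3 in IL-10-Fc.

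Other muscle genes, in lists outside the 36, gave the wider frame. Of 23 further sarcomere genes 21 were tested, and 14 fell in IL-10-Fc against aCSF1R, 4 in BF10 against aCSF1R, 3 in IL-10-Fc against Ctrl-IgG and 1 in BF10 against Ctrl-IgG, with no rise in any of them. The shares of all tested genes that fell in these 4 comparisons were 31.2%, 14%, 23.6% and 13.2%, which also stand beside the counts that follow. The 4 most abundant, Xirp2, Csrp3, Tcap and Mybpc1, reached 49.05, 48.93, 37.85 and 36.91 FPKM at their highest and were at most 0.14 FPKM in IL-10-Fc and in BF10 replicates 1 and 2. Of 15 genes of excitation and calcium release 12 were tested, and 8, 3, 3 and 3 fell in the same 4 comparisons. Among them the calcium channel subunit Cacnb1 measured 7.43, 2.41 and 9.15 FPKM in Ctrl-IgG, 9.62, 9.30 and 7.68 with aCSF1R, 0.34, 0.32 and 0.73 with IL-10-Fc, and 0.33, 0.94 and 2.14 with BF10, which is the course of Cox6a2 and Myl2. The junction protein Jph1 likewise ran from 2.31 to 4 FPKM in each Ctrl-IgG or aCSF1R library and did not pass 0.48 FPKM elsewhere. Of 16 further genes of muscle energy supply 12 were tested, with 1 rise in BF10 against each of Ctrl-IgG and aCSF1R and 5 falls in IL-10-Fc against aCSF1R. The falls include Gys1, glycogen synthase, which fell by 2.08 ± 0.66 (limma adjusted p = 0.0272), and Pfkm, muscle phosphofructokinase, which fell by 2.59 ± 0.66 (limma adjusted p = 0.0108).

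Markers of muscle precursors and of the heart were checked beside the 36 genes. Of 19 myogenic factors and satellite cell genes 10 were tested, and 6 fell in IL-10-Fc against aCSF1R, 2 in BF10 against aCSF1R, 3 in IL-10-Fc against Ctrl-IgG and 1 in BF10 against Ctrl-IgG, beside 31.2%, 14%, 23.6% and 13.2% of all tested genes. Pax7, Myf5 and Myod1, which mark satellite cells and myoblasts, were at most 0.04, 0.09 and 0.24 FPKM in any library and at 0 in all IL-10-Fc and BF10 libraries. Myog, which marks differentiating muscle cells, reached 4.22, 2.86 and 4.58 FPKM in Ctrl-IgG replicate 3 and aCSF1R replicates 1 and 2, and Myf6, named here after its values were seen, 7.71, 3.30 and 3.60 FPKM. The cardiac myosin Myh6 and the atrial peptide Nppa stayed at or below 0.19 and 0.13 FPKM. Of 9 cardiac genes 5 were tested, and in BF10 against Ctrl-IgG 1 rose (Tnnt2) and 1 fell (Myl7). Tnnt2, cardiac troponin T, measured 1.13, 0.93 and 5.37 FPKM in Ctrl-IgG, 3.68, 4.92 and 1.07 with aCSF1R, 61.35, 83.77 and 248.16 with IL-10-Fc, and 84.73, 199.19 and 168.92 with BF10, and was higher in BF10 than in Ctrl-IgG by 5.59 ± 0.63 (limma adjusted p = 0.000174). It shares the course of Tnni2 and Eno3 in IL-10-Fc or BF10 libraries. Myl7, the atrial regulatory light chain, measured 18.54, 19.92 and 17.68 FPKM in Ctrl-IgG, 12.04, 11.97 and 19.06 in aCSF1R and no more than 1.82 FPKM in the remaining 6, and fell by 3.73 ± 0.36 in BF10 against Ctrl-IgG (limma adjusted p = 5.85e-05). Keratins of simple epithelium, Krt8 and Krt18, did not exceed 0.28 FPKM in any Ctrl-IgG or aCSF1R library and ran from 168.9 to 617.8 FPKM in the libraries given interleukin-10, the same division as for these genes, and the part of the epithelial cells in it was not tested.

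The genes outside the set whose level over the 12 libraries was most like the mean of the 32 tested genes were Csrp3, Mybpc1, Tcap, Xirp2, Myom1, Ankrd2, Pdlim3, Klhl41, the pseudogene Mylf-ps and Myoz2. Pearson's r of log2(FPKM + 1) with that mean ran from 0.985 to 0.996 over the 12 libraries. The libraries share groups and 3 of them have the highest muscle gene levels, so r describes that division and has no test. Csrp3, a Z-disc LIM protein, measured 2.28, 0.99 and 48.93 FPKM in Ctrl-IgG, 36.46, 35.61 and 3.99 with aCSF1R, at most 0.14 with IL-10-Fc, and 0, 0.04 and 4 with BF10.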

How the data were processed

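RNA from 12 libraries, 3 per group, was prepared with a stranded mRNA kit and sequenced on an Illumina NextSeq. The submitters' processing notes name GRCm38 (mm10), STAR 2.7.5a, RSEM 1.3.3 and DESeq2 1.30.0, and the strand setting of the counting is not given in the sources used here. The authors deposited FPKM values (fragments scaled by transcript length and by the library's assigned fragments), given to 2 decimals without scaling across libraries, for 55401 genes. They also deposited 4 tables of DESeq2 comparisons (log2 fold change, standard error, Wald statistic, p-values and mean normalized counts), which were not used. FPKM are not counts, so no count model was fitted and depth and counting error are unknown.

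Groups were taken from the treatment label, and replicate numbers follow sample order and name libraries only. No 2 libraries held identical values (0 pairs). Genes that reached 1 FPKM in 3 or more libraries (15813, with 32 of the 36 members) were tested with limma 3.58.1 in R 4.3.3 (intensity trend) on log2(FPKM + 1), with all 12 libraries in one model and no covariate, with Benjamini-Hochberg adjustment across all tested genes. Calls required an adjusted p under 0.05 and a fold of at least 1.5. The script was tested on simulated data. Named genes were all 36 members, at most the 4 most abundant of each other list, cell type markers, and the 10 genes most alike; others are said to be chosen after their values were seen. Gene positions came from GENCODE M21 and promoters from RefSeq, both GRCm38. The members and lists were chosen with earlier results of these data known. Alternatives changed the pseudocount, filter, scaling, covariates and libraries.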

Additional observations from a re-analysis of the deposited data

How the results depend on the processing

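Counts of muscle genes called depended on the processing, while no call reversed its direction in any alternative. In the order BF10 against Ctrl-IgG, IL-10-Fc against Ctrl-IgG, BF10 against aCSF1R and IL-10-Fc against aCSF1R, the counts were 5, 11, 13 and 24. Testing every gene above 0 gave 3, 6, 6 and 19, and a mean of at least 5 FPKM gave 3, 6, 6 and 15 (18 members then tested). A pseudocount of 0.1 raised the second to 18. Fitting only the groups compared gave 3 and 4 in the first 2, and the log2 FPKM sum as a covariate gave 8 in the first and 12 in the fourth. Leaving out 1 library gave ranges of 3 to 7, 5 to 18, 3 to 25 and 11 to 29, and 0 to 0 in the other 3 comparisons. Of the 53 calls, 20 were kept whichever library was left out. Without the 3 libraries with stratified epithelium the counts were 3, 5, 2 and 4, and without the 4 of highest FPKM sum 6, 6, 6 and 6. Rescaling to TPM, median-of-ratios and quantile scaling and a term for the first number of the sample title kept all 4 counts within 1.5 times. The sets of 3 and of 4 left-out libraries were chosen after seeing the data, and the cause of these changes was not tested. The share of all genes called under each alternative is not given here, so a changed count cannot be read as particular to the muscle genes. Median-of-ratios scaling moved the median of all genes from -0.39 to 0.01 in IL-10-Fc against Ctrl-IgG and from -0.51 to 0.02 in IL-10-Fc against aCSF1R, and that of the members from -1.94 to -1.75 and from -2.67 to -2.38.

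The fast minus slow level was 2.42 with Ctrl-IgG, 3.27 with aCSF1R, 1.08 with IL-10-Fc and 1.60 with BF10 over the 6 pairs of fast and slow forms only. Leaving out 1 library gave 0.44 to 2.11 in Ctrl-IgG, 1.99 to 2.97 in aCSF1R, 0.24 to 0.36 in IL-10-Fc and 0.35 to 0.90 in BF10. The mean share of the FPKM sum without Tpm1, Tpm2, Tpm3 and Des was 0.109% in aCSF1R and 0.0242% in BF10. Leaving out 1 library moved the share with them to 0.0872% to 0.248% in Ctrl-IgG, 0.199% to 0.276% in aCSF1R, 0.0231% to 0.0729% in IL-10-Fc and 0.0790% to 0.127% in BF10. No paired analysis was possible because the labels give no replicate numbers. The first number of the sample title, whose meaning is not given, is shared between groups at most once and entered only as a term of 2 levels (5 to 7 against 1 to 4).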

Other observations

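Lists of 6 muscle wasting genes (all tested) and 14 genes of the muscle membrane and nerve junction (8 tested) each had 2 genes that rose and none that fell in BF10 against Ctrl-IgG, where 11.8% of all tested genes rose. The median differences of the lists were -0.18 and -0.09, against -0.12 for all genes. In IL-10-Fc against Ctrl-IgG 1 of each list rose, and 1 wasting gene fell, where 10.1% of all tested genes rose and 23.6% fell. Both comparisons cross the sets of libraries that differ in Xist and H2-Ea. Acta1 was at most 0.30 FPKM in IL-10-Fc and in BF10 replicates 1 and 2, and 30.46 FPKM in BF10 replicate 3. Which cells held the genes of these lists was not tested. Ankrd1, a stretch-responsive protein listed here among genes of muscle wasting, measured 30.89, 36.60 and 49.02 FPKM in Ctrl-IgG replicates 1 to 3, 38.87, 35.75 and 24.17 with aCSF1R, 141.20, 195.47 and 162.36 with IL-10-Fc, and 156.49, 137.78 and 116.18 with BF10. It rose by 1.81 ± 0.25 on the log2(FPKM + 1) scale in BF10 against Ctrl-IgG (limma adjusted p = 0.000529). Its relative Ankrd2, which is found in slow skeletal fibres, instead reached 25.71 FPKM in Ctrl-IgG replicate 3 and was at most 0.17 FPKM in IL-10-Fc and in BF10 replicates 1 and 2.

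At the muscle membrane, Chrnb1, a subunit of the acetylcholine receptor, measured 15.12, 8.65 and 14.12 FPKM in Ctrl-IgG, 9.76, 10.68 and 6.17 with aCSF1R, 19.05, 17.52 and 74.52 with IL-10-Fc, and 28.58, 66.93 and 60.99 with BF10. It rose by 1.91 ± 0.52 in BF10 against Ctrl-IgG (limma adjusted p = 0.0212), and its difference of 1.19 ± 0.52 in IL-10-Fc was not called (limma adjusted p = 0.101). Chrnb1 was highest in IL-10-Fc replicate 3 and BF10 replicate 2, which had only 0.26 and 0.11 FPKM of Acta1. Dystrophin (Dmd) measured 0.12, 0.34 and 1.60 FPKM in Ctrl-IgG and 2.22, 3.09 and 2.90 FPKM in BF10, a rise of 1.24 ± 0.31 (limma adjusted p = 0.0144).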
